A study of Mus musculus with 9 samples.

Results

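miR-126a is the microRNA most closely tied to blood vessel endothelium, and its hairpin gives 2 mature strands (arms), miR-126a-3p and miR-126a-5p. Both were found by name among the 860 mature mouse miRNAs measured in subcutaneous adipose tissue, 2 members of 860, and both passed the filter on low values that left 489 miRNAs for testing. The study compared mice with an endothelial knockout of Ago1 with wild-type littermates. Ago1 encodes AGO1, an Argonaute protein that carries mature miRNAs. There were 9 small RNA libraries, each from 1 mouse: 3 labelled WT, 3 labelled Hete KO and 3 labelled Homo KO, the knockout genotypes being taken as heterozygous and homozygous. Every mouse, WT included, was 24 weeks old and had eaten food rich in fat and sucrose for 16 weeks, beginning at week 8. The sources used here do not give the Cre driver, the strain or the sex. The genotypes rest on the labels, because the files list miRNAs and Ago1 mRNA was not analysed here.

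Endothelial cells make miR-126 from an intron of Egfl7, a gene for a secreted factor of the vessel wall, so that host gene and miRNA share a transcript. The 3p arm is the well studied strand: it represses Spred1 and Pik3r2, which restrain signalling downstream of the VEGF receptor, and Vcam1, an adhesion molecule for leukocytes. Mice without miR-126 have leaky vessels. The 5p arm represses Dlk1, a Notch ligand, and favours endothelial proliferation after injury. Platelets and some blood progenitors carry miR-126 too. In fat, endothelium lines the capillaries around adipocytes, and a whole-tissue library sees its miRNAs mixed with those of every other cell type.

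The hairpin gene Mir126a lies on GRCm38 chromosome 2 from 26591357 to 26591429 on the plus strand, inside Egfl7 (26580014 to 26593120, same strand, GENCODE M21). In a protein-coding transcript with 10 exons it sits in intron 7, a 600-base intron from 26591064 to 26591663, with 293 bases before the hairpin and 234 after it. Of 19 annotated Egfl7 transcripts, 6 hold the hairpin in this intron, 2 hold it in a longer intron that ends at 26592117, 1 transcript with a retained intron carries it within an exon, and 10 do not reach it. A second annotated hairpin, Mir126b, is on the opposite strand (26591363 to 26591420) and is the reverse complement of 58 of the 73 bases of Mir126a. The sequences below, from RefSeq's table for GRCm38.p6, show the hairpin with mature miR-126a-3p in capitals, and then the mature strands with the seed (bases 2 to 8, the part that pairs with targets) in capitals. They are given 5′ to 3′ to show that the sense and antisense products have different seeds. Of the 2 members, miR-126a-3p matched a mature entry of that table and miR-126a-5p is named only.
Mir126a hairpin: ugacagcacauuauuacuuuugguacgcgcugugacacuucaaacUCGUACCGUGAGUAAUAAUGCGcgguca
miR-126a-3p: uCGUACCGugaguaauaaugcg
miR-126b-5p: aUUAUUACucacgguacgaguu
miR-126b-3p: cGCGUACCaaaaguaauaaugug

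The miR-126a-3p strand is 22 bases long and fills positions 46 to 67 of the hairpin. No other mature miRNA among the 1679 in the table shares its seed, so no seed family exists to read beside it. The antisense miR-126b-5p is complementary to miR-126a-3p over a run of 19 bases. Whether the authors' counting used strand is not given in the sources used here.

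**Figure D1:**
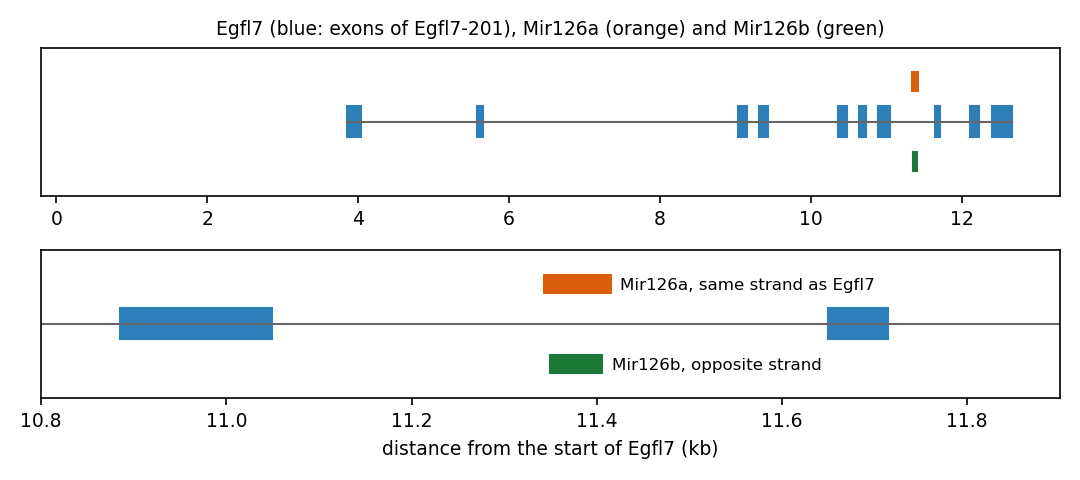
Map of Egfl7 drawn to scale, with distance from the annotated start of the gene in kb on the horizontal axis. Blue boxes are exons of a protein-coding transcript with 10 exons, the orange box is Mir126a and the green box is Mir126b on the opposite strand. The lower panel enlarges the 600-base intron that holds both hairpins.

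The deposited level of a miRNA is a value on a quantile-normalized log2 scale. All libraries share 1 ladder of ranked values, a level of an abundant miRNA is therefore a step on that ladder, and the number of reads behind it is unknown. The lowest value of a library was shared by 63 to 104 miRNAs in WT, 101 to 152 in Hete KO and 102 to 141 in Homo KO, which is the sign of depth that remains. Skeletal muscle miRNAs varied widely between mice: the mean of 4 such miRNAs (miR-206-3p, miR-1a-3p and the 3p strands of miR-133a and miR-133b) was 13.40, 13.73 and 7.56 in WT replicates 1, 2 and 3, 10.04, 14.35 and 8.76 in Hete KO, and 11.68, 6.17 and 7.40 in Homo KO. Muscle miRNAs that climb the ladder push the others down a step, so results on miR-126a are also given with these 4 miRNAs removed.

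miR-126a-3p was among the most abundant miRNAs of the tissue. Its level was 17.58, 17.99 and 17.83 in WT replicates 1, 2 and 3, ranks 11, 9 and 10 of 860. In Hete KO it was 17.58, 16.84 and 17.45, ranks 11, 13 and 12, and in Homo KO it was 17.58, 17.58 and 17.45, ranks 11, 11 and 12. No knockout library stood above the lowest WT library, but 1 Hete KO and 2 Homo KO libraries shared its exact level, so the groups touch. The lowest library was Hete KO replicate 2, which also had the most muscle miRNA and the most miRNAs at the lowest value (152). From rank 12 to rank 13 the shared ladder drops by 0.61, more than at any other step from rank 2 to rank 30, so this library's distance from the others is largely that 1 step. As a share of the summed abundance, after undoing the logarithm, miR-126a-3p made up 3.44% ± 0.49 in WT, 2.45% ± 0.62 in Hete KO and 2.84% ± 0.15 in Homo KO (SD, n = 3 each).

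miR-126a-5p, the less abundant arm, separated WT from the knockouts. Its level was 15.04, 15.34 and 14.95 in WT replicates 1, 2 and 3, ranks 28, 24 and 30. It was 14.52, 14.52 and 14.65 in Hete KO (ranks 38, 38 and 36) and 14.48, 14.80 and 14.65 in Homo KO (ranks 39, 33 and 36). Each of the 6 knockout libraries lay below each of the 3 WT libraries, with a gap of 0.15 between the highest knockout (Homo KO replicate 2) and the lowest WT library (replicate 3). Of the 489 tested miRNAs, 6.13% had all knockout libraries below all WT libraries, 8.59% had this in Hete KO and 14.3% in Homo KO. Group means were 15.11 ± 0.20 in WT, 14.56 ± 0.07 in Hete KO and 14.64 ± 0.16 in Homo KO (SD, n = 3 each), or 0.532% ± 0.077, 0.363% ± 0.019 and 0.384% ± 0.042 of the summed abundance. The spread of this arm between mice of 1 genotype was a pooled SD of 0.16, against 0.26 for the 3p arm. The median was 0.30 over all tested miRNAs and 0.21 over the 80 with a mean of at least 12.

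**Figure D2:**
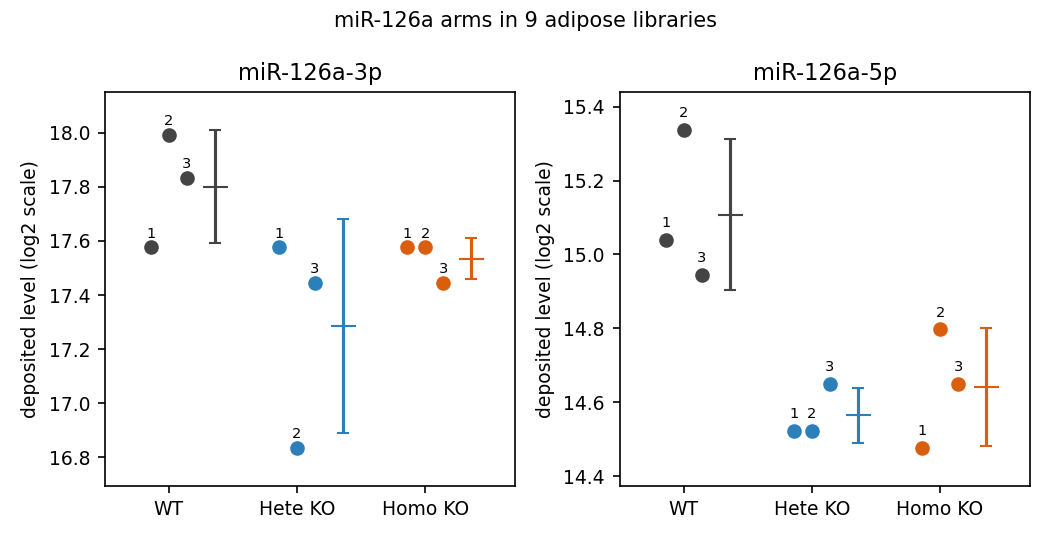
Deposited log2 level of miR-126a-3p (left) and miR-126a-5p (right) by genotype, 1 point per mouse with its replicate number, and the mean ± SD (n = 3) to the right of each group. For the 5p arm the WT mice start at 14.95 and the highest knockout mouse is at 14.80, while for the 3p arm WT replicate 1 shares the level 17.58 with 3 knockout mice. The vertical axes do not start at 0.

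Homo KO was compared with WT to ask whether this endothelial miRNA differed in fat when AGO1 was deleted in the endothelium. Neither arm passed the test. miR-126a-5p was at -0.47 ± 0.14 on the log2 scale (SE; adjusted p = 0.0869 by limma), a fold of 0.724 with a 95% confidence interval of 0.586 to 0.896, and miR-126a-3p had -0.27 ± 0.19 (adjusted p = 0.428), a fold of 0.831 with an interval of 0.618 to 1.12. Against a background of 3.27% of tested miRNAs called in this comparison, 0 of the 2 arms were called. At an unadjusted p under 0.05, which 23.9% of tested miRNAs reached, the 5p arm passed and the 3p arm did not. With sample weights the 5p arm was called (-0.40, adjusted p = 0.0367). The 3p value moved to -0.17 without WT replicate 2 and to -0.10 with the count of miRNAs at a library's floor as a covariate.

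Hete KO was compared with the same WT mice. miR-126a-5p was at -0.54 ± 0.14 (SE, limma, adjusted p = 0.0825; fold 0.687, 95% confidence interval 0.555 to 0.849) and miR-126a-3p at -0.51 ± 0.19 (adjusted p = 0.221; fold 0.700, interval 0.521 to 0.942). Neither was called, in a comparison where 0.409% of tested miRNAs were, while both had an unadjusted p under 0.05 (0.00299 and 0.0235), as did 15.7% of tested miRNAs. The 3p value moved to -0.29 without Hete KO replicate 2 (adjusted p = 0.362), the library with the most muscle miRNA.

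Between the knockout genotypes no difference was detected in either arm. Homo KO against Hete KO gave 0.08 ± 0.14 for miR-126a-5p (SE, limma, adjusted p = 0.949, 95% confidence interval -0.23 to 0.38) and 0.25 ± 0.19 for miR-126a-3p (adjusted p = 0.813, interval -0.18 to 0.67). The 3p value moved to 0.022 without Hete KO replicate 2 and to 0.39 without Hete KO replicate 1. The 5p value was 0.16 without Homo KO replicate 1, 0.12 without Hete KO replicate 3 and -0.00067 without Homo KO replicate 2. An interval that includes 0 does not show that the genotypes have the same level. No miRNA was called in this comparison (0% of 489), and 8.38% had an unadjusted p under 0.05.

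With the knockout genotypes pooled, a comparison added with earlier results of these data known, miR-126a-5p fell by 0.50 ± 0.12 on the log2 scale (SE, limma, adjusted p = 0.0370). The fold was 0.705 (95% confidence interval 0.587 to 0.848), a decrease that 6 of 6 knockout mice showed, and 3.89% of tested miRNAs were called lower here. miR-126a-3p was at -0.39 ± 0.16 (adjusted p = 0.197; fold 0.763, interval 0.590 to 0.986) and did not pass; with the count of miRNAs at a library's floor as a covariate it was at -0.22. Over the 3 genotypes a moderated F-test called neither arm (adjusted p = 0.104 for 5p and 0.298 for 3p, with 1.23% of tested miRNAs called). The call of the 5p arm rests on small margins: it was lost when WT replicate 1 (adjusted p = 0.167) was left out, and likewise for WT replicate 2 (0.0867), Hete KO replicate 2 (0.0583), Hete KO replicate 3 (0.0721), Homo KO replicate 1 (0.0703), Homo KO replicate 2 (0.0685) or Homo KO replicate 3 (0.0814), with log2 fold changes from -0.54 to -0.39. A covariate for the count of miRNAs at a library's floor ended it as well, at -0.64 ± 0.16 with adjusted p = 0.180. That count was 63 to 104 in WT, 101 to 152 in Hete KO and 102 to 141 in Homo KO, so it is hard to separate from genotype. Without the 3 muscle-rich libraries (WT replicates 1 and 2, Hete KO replicate 2) the 5p value was -0.33. That left 1 WT mouse, replicate 3, the lowest WT library for this arm (14.95).

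**Figure D3:**
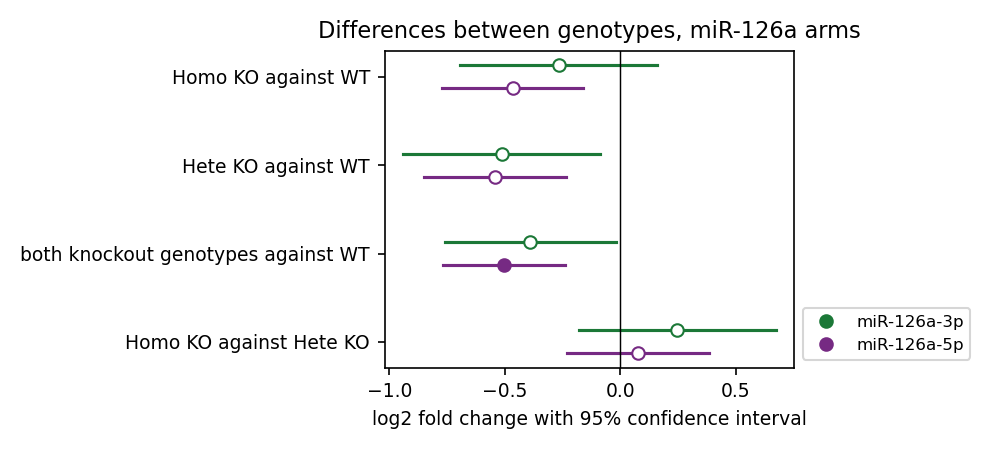
Log2 fold changes (points) with 95% confidence intervals (lines) for both arms in 4 comparisons of genotypes, from limma over all 9 libraries. The filled point passed an adjusted p of 0.05, which only miR-126a-5p did, with both knockout genotypes against WT, and open points did not.

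Removing the 4 muscle miRNAs and repeating the quantile normalization changed the call of the 3p arm with the genotypes pooled. miR-126a-3p was then at 17.75, 18.05 and 17.75 in WT, 17.53, 17.24 and 17.24 in Hete KO and 17.53, 17.53 and 17.24 in Homo KO, and every knockout library lay below every WT library. On these values the 3p arm was lower with both knockout genotypes against WT (-0.46 ± 0.11, SE, limma, adjusted p = 0.0366), as was the 5p arm (-0.56 ± 0.12, adjusted p = 0.0350). In this setting 4.74% of 485 tested miRNAs were called lower, and 6.8% had every knockout library below every WT library. Against WT singly, the 3p arm was at -0.41 in Homo KO (adjusted p = 0.0942) and at -0.51 in Hete KO (adjusted p = 0.0820). In the deposited ranking, 1 of the 4 muscle miRNAs stood above miR-126a-3p in WT replicates 1 and 2 and in Hete KO replicate 2, and none did in the other 6 libraries.

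**Figure D4:**
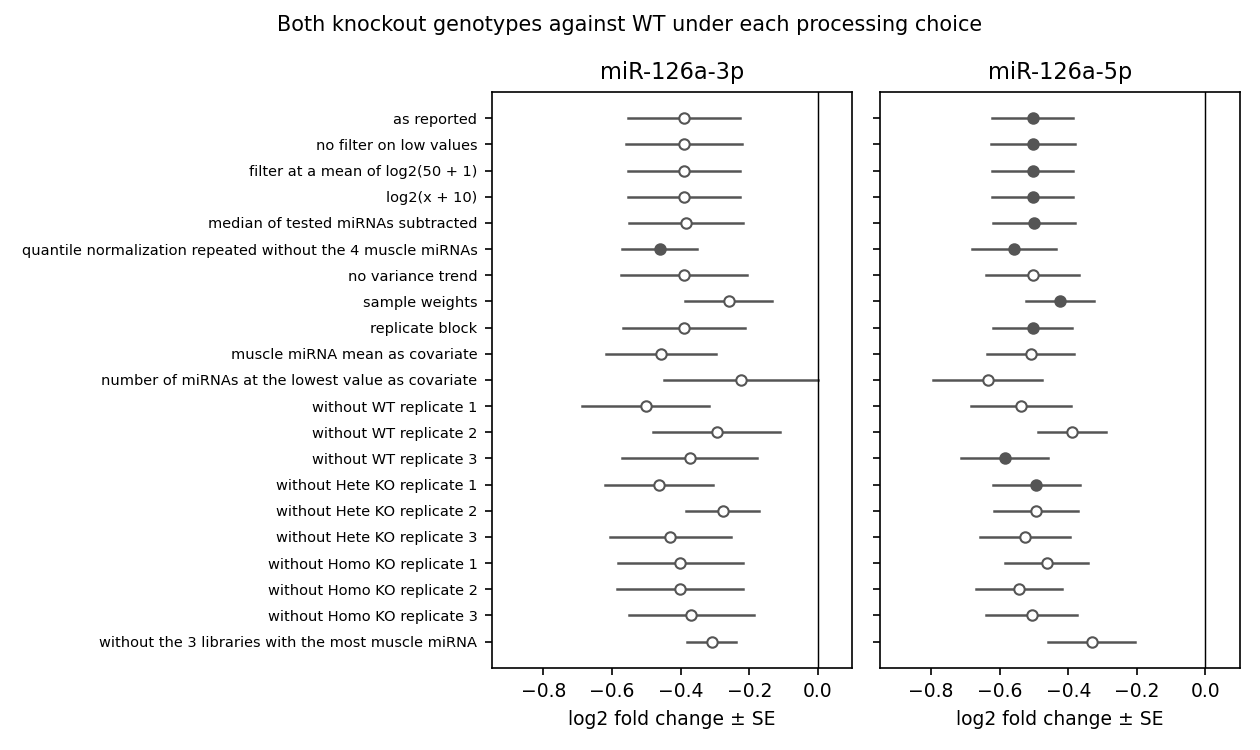
Log2 fold change ± SE of miR-126a-3p (left) and miR-126a-5p (right), both knockout genotypes against WT, as reported and under each other processing choice. All points lie below 0, and filled points passed an adjusted p of 0.05. The 3p arm passed with quantile normalization repeated without muscle miRNAs, and the 5p arm passed as reported and in 9 of 20 alternatives.

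The arms come from 1 hairpin, so their difference within a library is a measure separate from their level. miR-126a-3p exceeded miR-126a-5p by 2.54, 2.65 and 2.89 on the log2 scale in WT, by 3.06, 2.32 and 2.80 in Hete KO and by 3.10, 2.78 and 2.80 in Homo KO. The groups overlap, and the lowest ratio of 3p to 5p (4.98) and a ratio near the highest (8.32) both belong to Hete KO. Group means were 2.69 ± 0.18 in WT, 2.72 ± 0.38 in Hete KO and 2.89 ± 0.18 in Homo KO (SD, n = 3 each). An exact permutation test over the 3 genotypes gave p = 0.646, and the two-sided exact p for Homo KO against WT was 0.3, where 3 mice against 3 cannot give less than 0.1. Across the 9 libraries the levels of the arms had a Pearson r of 0.68 (exact permutation p = 0.0520, adjusted over 5 relations 0.190) and a Spearman rho of 0.59 (p = 0.1004, adjusted 0.368). Within genotypes r was 0.30 (exact p = 0.352), and without Hete KO replicate 2 and WT replicate 2, the libraries farthest from the median, it was 0.46 (exact p = 0.333, n = 7). Leaving out WT replicate 2 alone lowered r to 0.50 (exact p = 0.231), and leaving out Hete KO replicate 2 alone raised it to 0.77 (exact p = 0.0274).

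No relation of either arm with the muscle miRNA mean or with the count of miRNAs at a library's floor passed across the 9 libraries. With the muscle miRNA mean, r was -0.22 for 3p (rho -0.0087) and 0.19 for 5p (rho -0.034), with exact permutation p of 0.621 for both r, 0.994 and 0.940 for rho, and adjusted p of 0.621 for r and 0.994 for rho. With the count of miRNAs at a library's floor, r was -0.62 for 3p (exact p = 0.0761, adjusted 0.190; rho -0.49, p = 0.187, adjusted 0.368) and -0.45 for 5p (exact p = 0.217, adjusted 0.362; rho -0.45, p = 0.221, adjusted 0.368). Within genotypes those last values were -0.37 (exact p = 0.565) for 3p and 0.49 (exact p = 0.222) for 5p, so that for 5p the sign turned. Leaving out Hete KO replicate 2 and WT replicate 3, the libraries with the extreme counts, gave r of -0.0046 (exact p = 0.990) for 3p and -0.28 (exact p = 0.512) for 5p. For muscle, leaving out Hete KO replicate 2 and Homo KO replicate 2 gave 0.40 (exact p = 0.371) for 3p and 0.50 (exact p = 0.245) for 5p, and within genotypes r was -0.44 (p = 0.352) and -0.058 (p = 0.880).

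The antisense miRNAs of the locus were close to the bottom of the range. miR-126b-5p was between 2.78 and 4.16 and miR-126b-3p between 2.04 and 4.35 over the 9 libraries, against 17.54 for the mean of miR-126a-3p. By genotype miR-126b-5p was 3.22 ± 0.19 in WT, 3.33 ± 0.51 in Hete KO and 3.79 ± 0.33 in Homo KO, and miR-126b-3p was 3.39 ± 0.24, 3.64 ± 0.69 and 2.72 ± 0.58 (SD, n = 3 each). Both had means under the filter's level of 3.46 and were not tested.

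Neighbours on the ladder put the levels of the arms in context. By mean over 9 libraries, miR-126a-3p (17.54) was rank 11, between miR-30e-5p (17.72), a member of the miR-30 family, and let-7e-5p (17.35). These neighbours were on the opposite side of 0: with both knockout genotypes against WT, miR-30e-5p rose by 0.34 ± 0.07 (SE, limma, adjusted p = 0.0329) and let-7e-5p was at 0.41 ± 0.16 (adjusted p = 0.180). In every knockout library miR-30e-5p was at 17.83, the shared value of rank 10. On a shared ladder a miRNA that steps down lets another step up, so these signs are not independent of that of miR-126a-3p. miR-126a-5p (14.77) was rank 35, between miR-27b-3p (14.78), a miRNA that restrains adipocyte differentiation, and miR-101a-3p (14.69). Those neighbours were near 0 in the same comparison, at 0.08 ± 0.11 (adjusted p = 0.693) and 0.05 ± 0.14 (adjusted p = 0.855).

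Of the tested miRNAs, those with a profile over the 9 libraries most like that of miR-126a-3p, by Pearson r on the log2 values, were miR-21a-5p (0.93), miR-466f-3p (0.91), miR-23a-3p (0.90), miR-362-5p (0.88) and miR-298-5p (0.85). The most opposite were miR-101a-5p (-0.82), miR-203-5p (-0.81) and miR-22-5p (-0.81). For miR-126a-5p the most alike were miR-503-5p (0.97), miR-18a-5p (0.93), miR-152-5p (0.90), miR-19b-3p (0.86) and miR-369-3p (0.83), and the most opposite were miR-365-2-5p (-0.91), miR-215-5p (-0.91) and miR-26b-5p (-0.89). No miRNA was on both lists. Each arm ranked the other well below these, miR-126a-5p being 36th for the 3p arm and miR-126a-3p 27th for the 5p arm. With genotype means removed the r of miR-21a-5p with the 3p arm was 0.92 and that of miR-503-5p with the 5p arm 0.87, whereas miR-369-3p had 0.13. These are descriptions over 9 points that share the libraries' depth and ranking, picked as the highest of 488.

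miR-503-5p, an endothelial and cell-cycle miRNA of an X-linked cluster, had means of 9.33 ± 0.30 in WT, 8.54 ± 0.12 in Hete KO and 8.54 ± 0.09 in Homo KO (SD, n = 3 each). miR-21a-5p, raised in many injured and inflamed tissues, had 18.50 ± 0.27, 18.09 ± 0.46 and 18.30 ± 0.15. The former was thus near-level across knockout mice like the 5p arm, and the latter shared with the 3p arm a low Hete KO mean and its large SD.

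Other miRNAs of endothelium and angiogenesis were read beside miR-126a. The list held 45 names chosen with earlier results of these data known, most of them also made by other adipose cells. Without the miR-126a arms it had 43, of which 40 were tested. In Homo KO against WT, 5 of the 40 were called lower and 0 higher, where 1.64% of all tested miRNAs were called lower and 1.64% higher, and the median log2 fold change was -0.066 against 0.073 over all tested miRNAs. That median moved to -0.029 without WT replicate 1, to -0.038 without Homo KO replicate 1 and to -0.13 without WT replicate 2. These 5 were miR-221-3p (-0.96 ± 0.21) and miR-221-5p (-0.95 ± 0.19), which act on KIT and on cell-cycle inhibitors, miR-139-3p (-0.96 ± 0.19), miR-18a-5p of the miR-17-92 cluster (-0.71 ± 0.14) and miR-503-5p (-0.79 ± 0.17), with SE and limma adjusted p of 0.0314 to 0.0424. In Hete KO against WT 0 of 40 were called (limma), with 12 lower and 1 higher at an unadjusted p under 0.05, where 7.16% of all tested miRNAs were lower and 8.59% higher by that rule, and the median was -0.11 against -0.02. Leaving out 1 library moved it to -0.23 (WT replicate 2), -0.22 (Hete KO replicate 1), -0.17 (Hete KO replicate 3), -0.067 (WT replicate 3) or -0.051 (Hete KO replicate 2).

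With both knockout genotypes against WT, 7 of the 40 were called lower and 1 higher, where 3.89% of tested miRNAs were called lower and 4.5% higher, and the median was -0.12 against 0.01. That median moved to -0.039 without WT replicate 1, to -0.030 without WT replicate 3 and to -0.18 without WT replicate 2. Beyond the 5 above, miR-20a-5p (-0.47 ± 0.12) and miR-132-3p (-0.68 ± 0.15) were lower and miR-130a-3p, which represses Pparg, was higher (0.72 ± 0.16, SE, limma adjusted p of 0.0370 to 0.0407 for these 3, named after their values were seen). The most abundant members of the list were not called: let-7f-5p was at 0.20 ± 0.11, miR-21a-5p at -0.30 ± 0.19, miR-10b-5p at 0.08 ± 0.10, miR-10a-5p at -0.04 ± 0.10, miR-125b-5p at 0.22 ± 0.20, miR-23a-3p at -0.41 ± 0.13 and miR-23b-3p at -0.30 ± 0.13. Among the list miR-126a-3p was the 3rd most abundant.

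**Figure D5:**
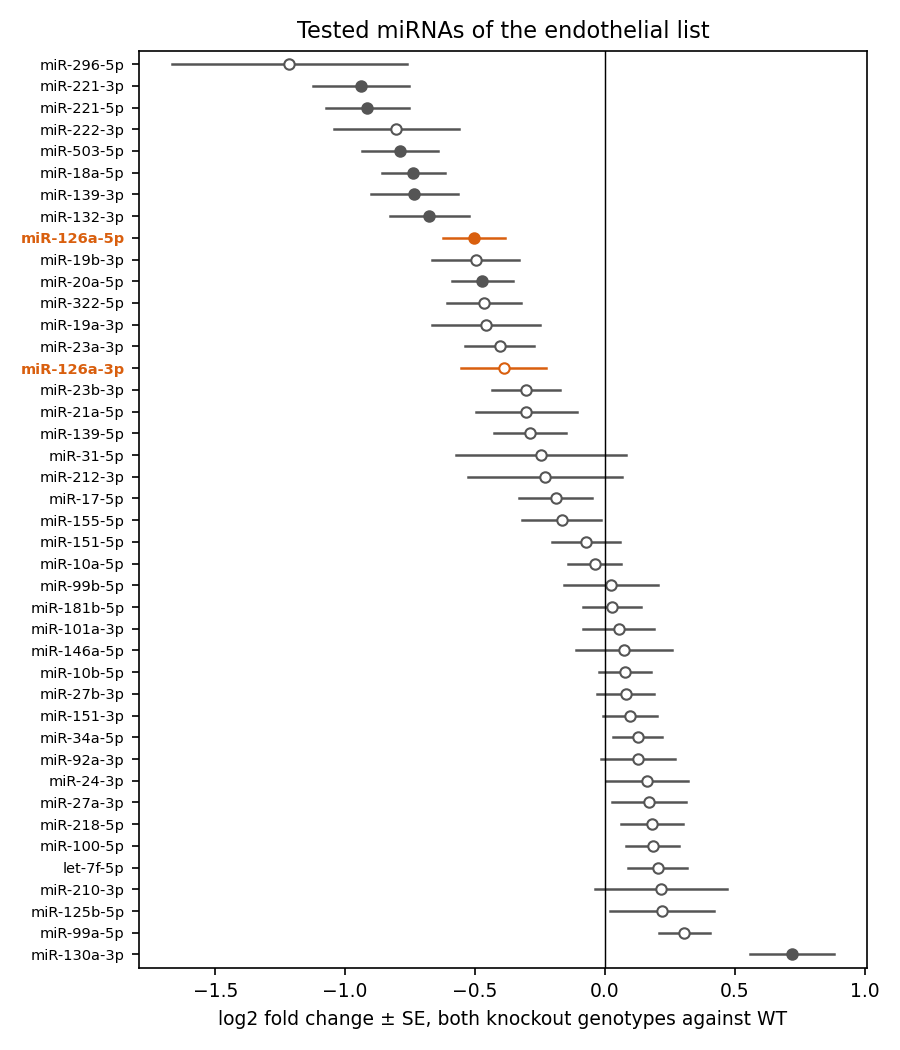
Log2 fold change ± SE, both knockout genotypes against WT, for the 42 tested miRNAs of the endothelial list, sorted by value, with the miR-126a arms in orange. Filled points passed an adjusted p of 0.05 over all 489 tested miRNAs. miR-126a-5p is among 8 called lower, and miR-130a-3p is the called miRNA on the higher side.

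In whole tissue, fewer endothelial cells and less miR-126a per cell cannot be told apart. Summed levels of marker miRNAs of other cells differed between some of the groups, and their part in the miR-126a values was not tested. The summed level of 6 epithelial miRNAs (log2) was 11.78 to 12.23 in WT, 12.87 to 12.97 in Hete KO and 12.80 to 12.96 in Homo KO. The mean of their log2 levels was 6.13 ± 0.19 in WT, 7.40 ± 1.65 in Hete KO and 6.77 ± 0.38 in Homo KO (SD, n = 3 each). The summed level of 5 leukocyte miRNAs was 13.89 to 14.20 in WT, 13.76 to 14.22 in Hete KO and 14.35 to 14.67 in Homo KO. For 3 erythroid miRNAs it was 13.48 to 14.15, 12.14 to 13.46 and 13.02 to 13.48. For the mural miRNAs miR-143-3p and miR-145a-5p it was 19.46 to 20.02, 19.45 to 20.02 and 20.02 in every Homo KO mouse. The highest single value was 19.99 in every library, so the mural sum lay near the top of the shared ladder. It had little room to rise there. miR-122-5p, the liver miRNA, was 7.48 to 14.99, 13.43 to 13.84 and 11.71 to 14.52. The summed level of the endothelial list without the miR-126a arms was 20.45 to 20.47 in WT, 20.17 to 20.55 in Hete KO and 20.48 to 20.53 in Homo KO. This sum, which its most abundant members carry, was not lower in Homo KO. The mean of the list's log2 levels was lower in both knockout genotypes. It was 11.32 ± 0.02 in WT, 11.15 ± 0.11 in Hete KO and 11.15 ± 0.02 in Homo KO (SD, n = 3 each). The list was chosen with earlier results of these data known and holds the miRNAs called lower above. Its mean is therefore not an independent measure of endothelium. All markers of these lists but the endothelial one, where 40 of 43 did, passed the filter on low values. None was at 0 in all 3 WT libraries. The knockout groups cannot be read this way, because the lowest value was 0.22 in Hete KO replicate 2 and in Homo KO replicate 2.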

How the data were processed

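Small RNA of subcutaneous adipose tissue from 9 mice was extracted with Trizol and made into TruSeq small RNA libraries, per the labels' protocols; the genome build was mm10, per the submitters' processing notes. The aligner, counter and normalization steps were not given in the sources used here. Values deposited by the authors are log2 levels, 1 per mature miRNA, although the file names speak of FPKM: they run from 0 to 20.0, the highest is identical in all 9 libraries, and all libraries hold the same value at 147 ranks, so they were treated as quantile-normalized log2(x + 1). Depth is unknown, so counting error could not be computed.

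A miRNA was tested if 3 or more libraries held it above their floor, with a mean of at least 3.46, which is log2(10 + 1). Genotype comparisons used limma 3.58.1 (R 4.3.3, variance trend, 9 libraries, no covariate, no further pseudocount), p-values were adjusted by Benjamini-Hochberg over all 489 tested miRNAs, and the threshold was 0.05. Single measures had exact permutation tests. Replicates are individual mice. The steps were tested on simulated data. The members, the lists and the comparison of both knockout genotypes with WT were chosen with earlier results of these data known. Named beside the arms are the antisense miR-126b strands, the neighbours in mean level, the 5 most alike and 3 most opposite miRNAs per arm, and the called and the 8 most abundant endothelial miRNAs. Figures were drawn with matplotlib 3.10.9.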

Additional observations from a re-analysis of the deposited data

How the results depend on the processing

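In every alternative run, both arms kept a negative log2 fold change in Homo KO, in Hete KO and in both genotypes together against WT. With both genotypes together, miR-126a-5p passed in 9 of 20 alternatives. It did not pass without a variance trend (-0.50, adjusted p = 0.0658), or with the muscle miRNA mean (-0.51, 0.0702) or the count of miRNAs at the floor (-0.64, 0.180) as covariate. Without the 3 muscle-rich libraries, a choice made after seeing the data, the value of miR-126a-5p was -0.33, with only 1 WT mouse left. Leaving out 1 library at a time gave -0.58 to -0.39 (adjusted p from 0.0405 to 0.167), and the cause of the lost calls was not tested. Calls appeared for miR-126a-3p with both genotypes together when quantile normalization was repeated without muscle miRNAs (-0.46, adjusted p = 0.0366) and for miR-126a-5p in Homo KO with sample weights (-0.40, 0.0367). The number of miRNAs called with both genotypes together was 41 as reported and 0 with the count of miRNAs at the floor as covariate. It was 1 without WT replicate 1, 4 without Homo KO replicate 3 and 88 with sample weights.

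Leaving out 1 library at a time, Homo KO against Hete KO ran from -0.00067 to 0.16 for miR-126a-5p and from 0.022 to 0.39 for miR-126a-3p, and Homo KO against WT from -0.38 to -0.17 for miR-126a-3p. The same step moved the arm difference from -0.14 to 0.23 for Hete KO minus WT and from -0.034 to 0.34 for Homo KO minus Hete KO, so these have no stable sign. The relation of the arms ran from r = 0.50 to 0.77 (exact permutation p from 0.0274 to 0.231), and was r = 0.85 (exact p = 0.00337) after normalization without muscle miRNAs. The endothelial list's median ran from -0.13 to -0.029 in Homo KO, from -0.23 to -0.051 in Hete KO and from -0.18 to -0.030 with both, where it was -0.074 with no filter on low values and -0.056 with a stricter one. Same-numbered mice deviated together in some pairs and not in others (r from -0.28 to 0.55), and each pair of replicate 3 mice had a positive r (0.38 to 0.55). Differently numbered mice were not compared, so whether the numbers pair mice is not known. With the replicate number as a block, both genotypes against WT gave -0.50 for miR-126a-5p (limma, adjusted p = 0.0391) and -0.39 for miR-126a-3p (0.241), and no call of either arm changed. Depth is unknown, and a step between ladder values limits how finely abundant miRNAs can be compared.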

Other observations

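Among the 80 tested miRNAs with a mean of at least 12, the pooled SD within genotypes was smaller than that of miR-126a-5p in 22.5% and smaller than that of miR-126a-3p in 71.2%, with a median of 0.21. The level 17.58 of miR-126a-3p was shared by 4 of the 9 libraries and 17.45 by 2 more, while 2 of the 6 knockout libraries shared 14.52 for miR-126a-5p and another pair shared 14.65.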
